A study of Homo sapiens with 9 samples.

Results

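The mitosis genes described here are 40 genes that act between the entry into mitosis and the separation of the daughter cells. They were found by their gene name, and each of the 40 matched 1 row of the 58735 genes in the count and FPKM tables. Poly-A RNA was sequenced from 9 libraries of Huh-7 cells, a human hepatoma line that secretes apolipoprotein B. The control group is labelled as Huh-7 cells. For its first screen the study describes controls that went through electroporation without the Cas9 complex. The sample titles and its sequencing methods do not say whether the sequenced controls were such cells. Ako-3 is an APOB knockout clone, made by electroporating Huh-7 cells with Cas9 and 3 guide RNAs to exon 6 of APOB and growing a single cell. Mko-3 is a knockout clone of MTTP, the gene of the transfer protein that loads lipid onto apolipoprotein B, derived from Huh-7 cells in earlier work of the laboratory. Each group had 3 libraries, all cells were grown to near confluence in serum and then kept overnight without it, and both knockouts were compared with the same 3 control libraries. Each knockout is 1 clone, so the loss of the gene and the descent from a single cell cannot be told apart. The labels call the 3 libraries of a group biological replicates but do not say whether they came from separate cultures, so the p-values measure the spread between libraries only. In RNA from whole cultures, fewer cells in mitosis and less RNA per mitotic cell cannot be told apart either.

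Mitosis begins when CDK1 is bound by A and B type cyclins and freed from inhibition by the CDC25 phosphatases, while the Polo and Aurora kinases act on centrosomes and chromosomes. Kinetochore proteins built on the CENPA nucleosome hold spindle microtubules, and the checkpoint proteins BUB1, BUB1B, BUB3, MAD2L1 and TTK keep CDC20 from activating the anaphase-promoting complex until every chromosome is attached. Securin is then destroyed, separase cuts cohesin, and the central spindle directs the cleavage furrow. Most adult hepatocytes rest outside the cell cycle, whereas hepatoma lines divide, and many of these genes are transcribed late in the cycle through CCAAT boxes and the cell-cycle genes homology region (CHR).

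The promoter letters of the genes on which the results turn are shown first, because both motifs are shared by most of the set. CENPF, MKI67 and INCENP had the largest rises in Ako-3 and, with NUSAP1, in Mko-3 cells, CDC20 was higher in Mko-3 than in Ako-3 cells, and CCNA2 and AURKB were lower. Each line gives the 250 bases before the RefSeq start of the gene on GRCh38.p14, read 5′ to 3′ in the direction of the gene. CCAAT or its reverse complement ATTGG stands in capitals, as do the 4 CHR forms searched (TTTGAA or its reverse complement TTCAAA, besides TTTAAA and also TTCGAA). The windows are chr1:214602945-214603194 on the plus strand, chr10:128126424-128126673 on the minus strand, chr11:62123761-62124010 on the plus strand, chr1:43358731-43358980 on the plus strand, chr4:121823884-121824133 on the minus strand and chr17:8210226-8210475 on the minus strand. In MKI67 a TTTGAA runs into an ATTGG that shares its last base.
CENPF: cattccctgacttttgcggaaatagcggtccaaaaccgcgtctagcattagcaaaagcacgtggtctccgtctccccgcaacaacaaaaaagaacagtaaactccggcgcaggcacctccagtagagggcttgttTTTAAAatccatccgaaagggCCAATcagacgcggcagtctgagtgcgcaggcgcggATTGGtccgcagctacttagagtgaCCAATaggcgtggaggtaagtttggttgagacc
MKI67: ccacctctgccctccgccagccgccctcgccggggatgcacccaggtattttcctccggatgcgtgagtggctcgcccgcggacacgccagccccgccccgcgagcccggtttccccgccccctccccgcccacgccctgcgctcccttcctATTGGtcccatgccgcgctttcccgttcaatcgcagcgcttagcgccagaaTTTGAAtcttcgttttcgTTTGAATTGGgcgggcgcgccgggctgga
INCENP: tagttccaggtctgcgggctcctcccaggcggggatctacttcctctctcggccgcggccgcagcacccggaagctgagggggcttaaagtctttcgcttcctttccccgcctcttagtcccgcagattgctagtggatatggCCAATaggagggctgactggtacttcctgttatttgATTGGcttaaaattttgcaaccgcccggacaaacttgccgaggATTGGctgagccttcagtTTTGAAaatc
CDC20: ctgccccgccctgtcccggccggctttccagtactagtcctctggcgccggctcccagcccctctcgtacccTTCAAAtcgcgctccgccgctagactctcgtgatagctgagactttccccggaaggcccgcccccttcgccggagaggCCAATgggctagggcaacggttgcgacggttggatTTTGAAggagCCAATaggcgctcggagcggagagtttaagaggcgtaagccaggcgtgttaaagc
CCNA2: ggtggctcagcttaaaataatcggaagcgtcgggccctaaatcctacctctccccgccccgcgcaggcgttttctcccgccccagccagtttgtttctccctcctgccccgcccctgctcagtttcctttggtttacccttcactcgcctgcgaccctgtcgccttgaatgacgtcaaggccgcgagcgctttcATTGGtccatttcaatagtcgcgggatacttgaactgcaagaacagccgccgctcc
AURKB: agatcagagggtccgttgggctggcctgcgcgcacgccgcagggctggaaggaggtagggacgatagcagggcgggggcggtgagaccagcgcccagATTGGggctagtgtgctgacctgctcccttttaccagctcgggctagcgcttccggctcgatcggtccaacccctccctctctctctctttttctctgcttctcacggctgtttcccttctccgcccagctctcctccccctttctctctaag

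RefSeq promoters of 300 bases, 250 before the start and 50 after, were matched by symbol for 34 of the 40 genes; AURKA, BIRC5, BUB3, TTK, TPX2 and UBE2C were not matched. CCAAT, read on both strands, stood in 27 of the 34 (79.4%) against 34.6% of the 35116 promoters in the table, and stood there at least 2 times in 17 of the 34, against 10.8% of all. TTTGAA or TTCAAA, which are each other's reverse complement, stood in 25 (73.5% against 15.2%). TTTAAA stood in 13 (38.2% against 12.2%), and TTCGAA in 2 (5.88% against 1.45%). Any of these CHR forms was found in 31 of the 34 (91.2%) against 25.1% of all promoters, and CCAAT together with such a form in 25 (73.5% against 9.7%). In 103 matched promoters of the 120 further mitosis genes described below, CCAAT stood in 54.4%, a CHR form in 47.6% and both in 30.1%. These shares were lower than in the 34 promoters of the set. In 37 matched promoters of a list of DNA replication and G1/S genes, CCAAT stood in 54.1%, but a CHR form in 13.5%. The CCNA2 and AURKB windows held CCAAT without any of the 4 CHR forms searched, and the CDC25C window held neither of these. Other spellings were not searched. The CCNA2 letters above hold cttgaa, which is left out of all counts here, so a window without the searched forms may still hold a CHR. For each gene 1 RefSeq start was used. The AURKB window lies inside the deposited span of that gene (8204733 to 8210600), so another start could give other letters. The same holds for the windows of CENPA, HMMR, KIF20A, NUF2, PLK1 and PRC1, and other windows overlap the span of their gene in part. These counts describe letters only, since no bound factor was measured.

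The libraries held 14638727 to 20179760 counts. APOB was lowest in Ako-3 (1258 to 1420 CPM, read counts scaled to library size after TMM, against 2683 to 3871 in control cells) and MTTP was lowest in Mko-3 (82.9 to 90.7 against 603 to 663 CPM), as labelled. Of 8 hepatocyte markers, ALB, AFP and SERPINA1 are given here and lay above 2000 CPM in all 9 libraries. At an adjusted p of at most 0.05, 6 of the 8 were higher and 0 lower in Ako-3 than in control cells (25.5% and 24.4% of all genes tested). In Mko-3 cells 3 were higher and 2 lower (26.9% and 27.1% of all genes). Against Ako-3 cells, 2 were higher and 6 lower in Mko-3 (21.1% and 20.6% of all genes). Other cell types were checked by short marker lists. Of 4 endothelial markers, KDR was at 0 and VWF at most at 0.28 CPM, while CDH5 had 3.30 to 7.31 and PECAM1 48.0 to 109 CPM. Of the leukocyte markers given here, PTPRC and CD3E did not exceed 0.12 CPM, while CD14 had 5.08 to 11.0 and LYZ 262 to 353 CPM, and both of these were higher in Ako-3 than in control cells at the adjusted p. Of 5 fibroblast markers, DCN, COL1A1 and LUM did not exceed 0.69 CPM, PDGFRB had 2.61 to 6.72, and COL1A2 fell from 2.78 to 4.14 CPM in control cells to 0 to 0.76 in the knockouts. The part of these markers in the results was not tested.

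Huh-7 replicate 2 stood apart from the other control libraries in these genes. The median of the 40 genes, as log2 CPM minus the mean of the control libraries, was -0.10 in Huh-7 replicate 1, 0.18 in replicate 2 and -0.05 in replicate 3. It was 0.20, 0.18 and 0.22 in Ako-3 and 0.16, 0.22 and 0.23 in Mko-3. Huh-7 replicate 2 thus reached the level of the knockout libraries, and it was the highest control library in 37 of the 40 genes, against 37.1% of the 14431 genes above 1 CPM in control cells. For the DNA replication and G1/S list the median was -0.18, 0.38 and -0.22 in the 3 control libraries, and all 6 knockout libraries lay between 0.99 and 1.20, above every control library. The counts were therefore also taken without Huh-7 replicate 2. As that library was picked for its high values in these same genes, more rises and higher medians without it were to be foreseen. The values without it show how far the results depend on that library and give no separate support for a rise.

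**Figure D1:**
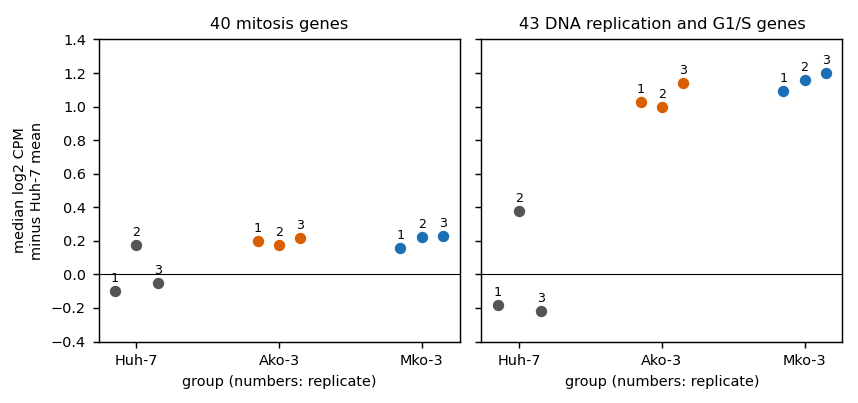
Median over the 40 mitosis genes (left) and over 43 DNA replication and G1/S genes (right) of log2 CPM minus the mean of the 3 Huh-7 libraries, 1 point for each library, numbered by replicate. For the mitosis genes Huh-7 replicate 2 lies at 0.18, among the knockout libraries, while for the replication genes no control library passes 0.38 and no knockout library is below 0.99.

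On a scale per gene length, the deposited FPKM, the highest levels in control cells were those of UBE2C, the ubiquitin-conjugating enzyme of the anaphase-promoting complex, at 78.0 ± 5.17 FPKM (SD, n = 3), and of the spindle assembly factor TPX2 at 76.1 ± 7.36 FPKM. These were followed by TOP2A at 60.5 ± 7.38 and CDC20 at 57.8 ± 2.62 FPKM. The first pair and the second pair each differed by less than the spread between libraries. MKI67 lay at 22.2 ± 5.26 FPKM, CDK1 at 17.6 ± 2.01 and TTK at 8.90 ± 1.69. The lowest levels were those of CENPE at 3.18 ± 0.63, NUSAP1 at 2.97 ± 0.91 and PRC1 at 0.28 ± 0.03 FPKM. NUSAP1 and PRC1 overlap other genes. In GENCODE release 44, 86.83% of the exon bases of NUSAP1 and 61.85% of those of PRC1 are shared with other genes of the table, mostly with 1 gene each on the same strand. That partner had 0 counts over the 9 libraries for NUSAP1, which had 1749, and 1244 for PRC1, which had 243. The release used for counting was not given, so both are uncertain, while 26 of the 40 genes shared no exon base.

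No mitosis gene changed by 2-fold in either knockout. With a log2 fold change past 1 in either direction required beside an adjusted p of at most 0.05 (quasi-likelihood test of edgeR, adjusted over all genes tested by the method of Benjamini and Hochberg), 0 of the 40 genes passed in Ako-3 against control cells, where 8.52% of the 15787 genes tested did. The count was also 0 in Mko-3 cells, where 11% of the 15745 genes tested passed. It stayed 0 in both at an unadjusted p of at most 0.05 and with DESeq2. Without Huh-7 replicate 2, CENPF alone passed in Mko-3 cells, at a log2 fold change of 1.02.

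Smaller changes were mostly upward. At an adjusted p of at most 0.05 without a limit on size, 20 of the 40 genes rose in Ako-3 cells and 0 fell, where 25.5% of all genes tested rose and 24.4% fell, and no member fell at an unadjusted p of at most 0.05 or with DESeq2. In Mko-3 cells 21 rose and 3 fell, beside 26.9% and 27.1% of all genes. The median log2 fold change of the 40 genes was 0.20 in Ako-3 and 0.21 in Mko-3 cells, and that of all genes tested was -0.01 in each. In Ako-3 cells 18 genes had all 3 libraries above the control libraries and 2 had them below, where 29.7% and 28% of all genes did, and in Mko-3 cells 19 and 3 did, where 30.9% and 29.8% of all genes did. The counts by role given below are read against the same shares of all genes.

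These counts moved with the control libraries. Without Huh-7 replicate 2 the rises numbered 28 in Ako-3 and 26 in Mko-3 cells, with medians of 0.30 in both. Of all genes tested, 26.2% and 28.5% rose in that setting. Without Huh-7 replicate 1 the set had 16 and 18 rises, with medians of 0.12 and 0.14, beside 23.3% and 25.1% of all genes. Without Huh-7 replicate 3 it had 15 and 16, with medians of 0.20 and 0.17, beside 22.2% and 23.8% of all genes. The genes that missed the adjusted p with all libraries and passed without Huh-7 replicate 2 were AURKA, CDCA8, BUB1, MAD2L1, TTK, CENPE, KIF2C and KIF4A in Ako-3, with adjusted p from 0.0032 to 0.024. In Mko-3 they were BUB1, CENPE, KIF4A, ASPM and UBE2C, with adjusted p from 0.0019 to 0.047, and ASPM also passed there with no filter on low counts and with a replicate block (adjusted p = 0.0026 and 0.013). With library totals alone, and no scaling factor, the median of all genes tested lay at -0.10 in Ako-3 and -0.08 in Mko-3 in place of -0.01. Of all genes tested, 19.4% were then higher and 31.4% lower in Ako-3, and 22.3% and 32% in Mko-3. The members numbered 14 higher and 2 lower (BUB3 and NDC80) in Ako-3, and 17 higher and 4 lower (AURKA besides the 3) in Mko-3 cells. The calls lost this way were those of CDK1, BUB1B, KIF11, NUSAP1, UBE2C and TOP2A in Ako-3 (adjusted p from 0.053 to 0.24) and of ESPL1, KIF20A, TPX2 and TOP2A in Mko-3 (adjusted p from 0.070 to 0.20). Of the 20 genes past the adjusted p in Ako-3, 13 were past it under each of the 13 other settings tried, as were 15 of the 24 in Mko-3 cells (14 higher, and TTK lower).

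**Figure D2:**
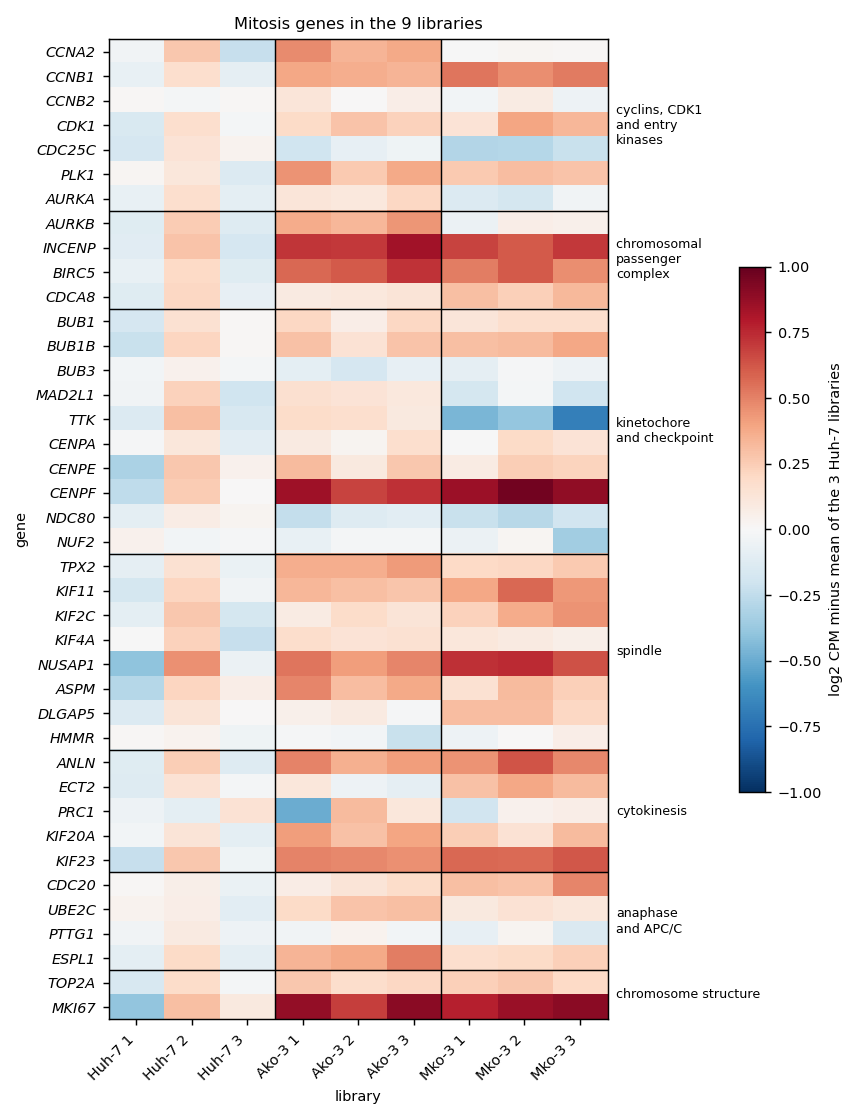
Log2 CPM of each of the 40 mitosis genes (rows, by role) minus the mean of the 3 Huh-7 libraries, in each of the 9 libraries (columns), red above and blue below that mean. INCENP, BIRC5, CENPF, MKI67 and NUSAP1 are red in all 6 knockout libraries, TTK is bluest in Mko-3, and most rows are pale red in Huh-7 replicate 2.

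**Figure D3:**
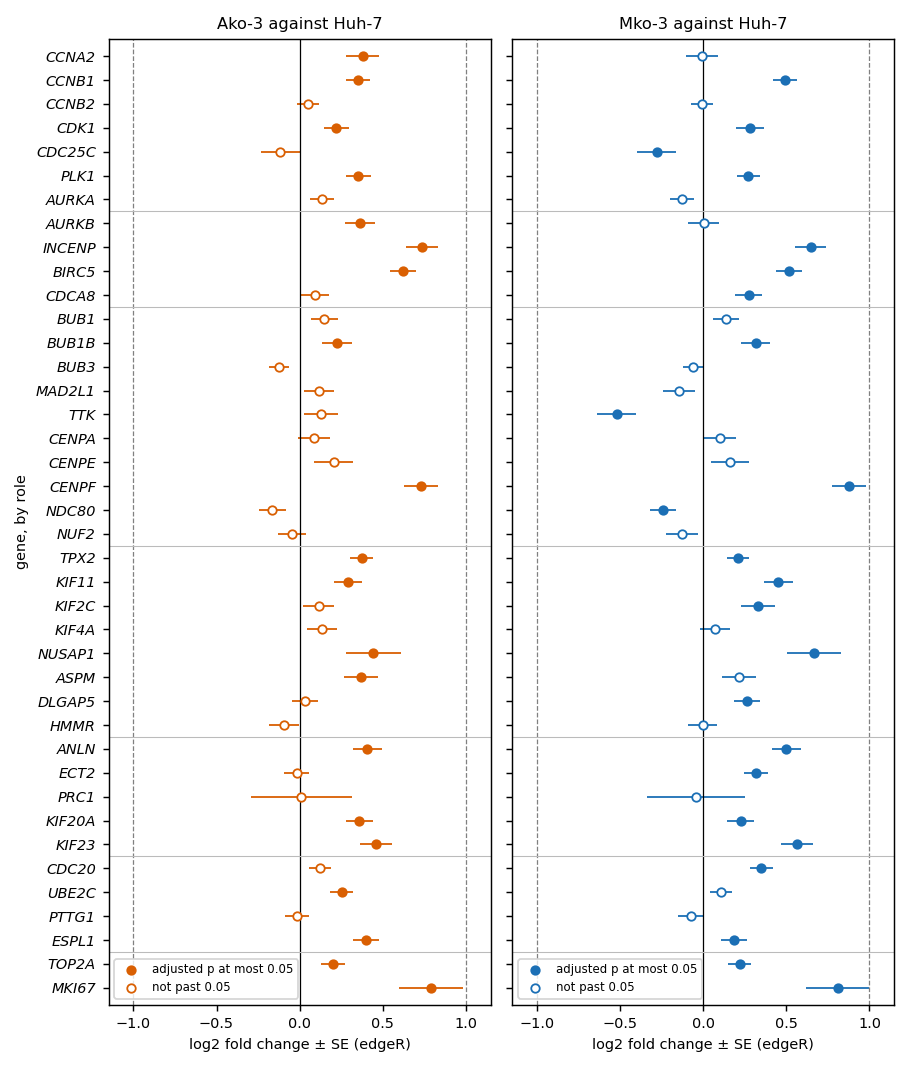
Log2 fold change of each mitosis gene against Huh-7 control cells with its standard error (bars), in Ako-3 (left) and Mko-3 (right), with filled points at an adjusted p of at most 0.05 and dashed lines at 1 and -1. Filled points number 20 in Ako-3, all above 0, and 24 in Mko-3, with TTK, NDC80 and CDC25C below 0, and no point lies past a dashed line.

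Among the cyclins, CDK1 and the entry kinases, 4 of 7 genes rose in Ako-3 cells and 0 fell, and in Mko-3 cells 3 rose and 1 fell. CCNB1, the cyclin B1 that carries CDK1 into mitosis, had 80.4, 95.2 and 79.8 CPM in the control libraries, 111, 109 and 107 in Ako-3 and 123, 117 and 122 in Mko-3. All 6 knockout libraries lay above the control libraries, and the log2 fold change was 0.35 in Ako-3 (SE 0.07, adjusted p = 0.00044) and 0.49 in Mko-3 (SE 0.07, adjusted p = 6.9e-06), a rise of 1.27-fold and 1.41-fold. CDK1 itself had 62.7, 78.4 and 68.8 CPM in control cells, 79.4, 84.8 and 81.7 in Ako-3 and 76.7, 91.7 and 87.8 in Mko-3. The Mko-3 and control libraries overlapped, and the log2 fold changes were 0.22 (SE 0.08, adjusted p = 0.023) and 0.28 (SE 0.08, adjusted p = 0.0084). CDK1 lost its place in Ako-3 without Huh-7 replicate 1 or 3 or Ako-3 replicate 2 or 3 (adjusted p = 0.12, 0.058, 0.087 and 0.062), and in Mko-3 without Mko-3 replicate 2 (adjusted p = 0.057).

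PLK1, the Polo-like kinase of centrosomes and kinetochores, had 97.9, 105 and 87.7 CPM in control cells, 132, 115 and 126 in Ako-3 and 115, 120 and 117 in Mko-3. Both knockouts lay above the control libraries and overlapped each other, and it rose by 0.35 in Ako-3 (SE 0.07, adjusted p = 0.00045) and by 0.27 in Mko-3 (SE 0.07, adjusted p = 0.0025) on the log2 scale. CCNA2, the cyclin A2 that acts in S phase and early mitosis, had 51.6, 63.9 and 45.2 CPM in control cells, 73.6, 67.1 and 69.1 in Ako-3 and 53.01, 53.9 and 53.6 in Mko-3. It rose in Ako-3 by 0.38 (SE 0.10, adjusted p = 0.0037), while the Mko-3 libraries lay within the control range at -0.01 (SE 0.10, adjusted p = 0.94). Of the exon bases of CCNA2, 9.24% are shared with EXOSC9 on the other strand.

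CCNB2, the cyclin B2, had the smallest difference of this group in Ako-3. It had 85.6, 83.6 and 85.7 CPM in control cells, 92.3, 85.1 and 88.8 in Ako-3 and 83.3, 90.0 and 81.8 in Mko-3, and its log2 fold changes were 0.05 (95% interval -0.08 to 0.19) and -0.01 (-0.15 to 0.13). CDC25C, a phosphatase that activates CDK1, fell in Mko-3 by 0.28 on the log2 scale (SE 0.12, adjusted p = 0.047), from 14.8 ± 1.56 to 12.3 ± 0.32 CPM (SD, n = 3 each). This was lost without Huh-7 replicate 2 or 3 or without any 1 of the Mko-3 libraries (adjusted p from 0.090 to 0.17), and with DESeq2, RLE size factors or no filter on low counts (adjusted p = 0.16, 0.052 and 0.14). AURKA, the Aurora kinase of spindle poles, lay at 127 ± 13.4 CPM in control cells, 141 ± 5.44 in Ako-3 and 117 ± 5.87 in Mko-3, which on the log2 scale is 0.14 in Ako-3 (adjusted p = 0.12) and -0.13 in Mko-3 (adjusted p = 0.14), and 0.22 and -0.03 without Huh-7 replicate 2 (adjusted p = 0.0041 and 0.71).

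The chromosomal passenger complex, which corrects faulty attachments and later moves to the midzone, had 3 of its 4 genes rise in each knockout and 0 fall. INCENP, its scaffold (ENSG00000149503, chromosome 11, 62123973 to 62153163, plus strand, hg38), had 56.7, 74.7 and 54.7 CPM in control cells, 101, 100.3 and 110.0 in Ako-3 and 98.4, 93.7 and 100.5 in Mko-3. Every knockout library lay above the highest control library, Huh-7 replicate 2, and INCENP rose by 0.74 in Ako-3 (SE 0.10, adjusted p = 1.0e-05) and 0.64 in Mko-3 (SE 0.10, adjusted p = 2.4e-05) on the log2 scale. BIRC5, survivin, had 84.8, 103 and 82.0 CPM in control cells, 133, 137 and 147 in Ako-3 and 127, 137 and 124 in Mko-3. It too was apart from the control libraries, higher on the log2 scale by 0.62 (SE 0.08, adjusted p = 1.8e-06) in Ako-3 and by 0.51 (SE 0.08, adjusted p = 1.2e-05) in Mko-3.

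The kinase of the complex, AURKB, had 56.3, 73.2 and 56.0 CPM in control cells, 79.2, 77.1 and 83.5 in Ako-3 and 58.8, 64.3 and 63.6 in Mko-3. It rose in Ako-3 by 0.37 (SE 0.09, adjusted p = 0.0022) and stood at 0.00 in Mko-3 (95% interval -0.19 to 0.19, adjusted p = 0.99), and at 0.15 there without Huh-7 replicate 2 (adjusted p = 0.087). Borealin, CDCA8, had 52.0, 65.3 and 53.6 CPM in control cells, 60.2, 60.8 and 62.0 in Ako-3 and 69.9, 66.8 and 71.1 in Mko-3. It rose in Mko-3 by 0.27 (SE 0.08, adjusted p = 0.0079), whereas the Ako-3 libraries lay within the control range at 0.09 (adjusted p = 0.37), and at 0.20 without Huh-7 replicate 2 (adjusted p = 0.024).

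Of the 10 kinetochore and checkpoint genes, 2 rose and 0 fell in Ako-3, and 2 rose and 2 fell in Mko-3 cells, with median log2 fold changes of 0.12 and 0.02. For a group of 10 genes, both counts of rises were near the share of all genes tested (25.5% and 26.9%). CENPF, a large protein of the outer kinetochore and nuclear matrix (ENSG00000117724, chromosome 1, 214603195 to 214664588, plus strand), had 112, 160 and 134 CPM in control cells, 242, 214 and 223 in Ako-3 and 243, 261 and 248 in Mko-3. All knockout libraries lay above all control libraries, and the log2 scale gave a rise of 0.88 in Mko-3 (SE 0.10, adjusted p = 8.6e-06), the largest of the set there, and of 0.73 in Ako-3 (SE 0.10, adjusted p = 9.1e-05), or 1.84-fold and 1.66-fold. BUB1B, the BubR1 arm of the checkpoint complex, had 47.9, 65.1 and 56.3 CPM in control cells, 68.5, 62.0 and 68.2 in Ako-3 and 68.8, 69.6 and 73.3 in Mko-3. It rose in Mko-3 by 0.31 (SE 0.09, adjusted p = 0.0053) and, with overlapping libraries, in Ako-3 by 0.23 (SE 0.09, adjusted p = 0.049), a call lost without Huh-7 replicate 1 or 3 or Ako-3 replicate 1 or 3 (adjusted p = 0.26, 0.11, 0.13 and 0.15), and with DESeq2, RLE size factors or at least 10 counts in every library (adjusted p = 0.067, 0.0503 and 0.055). Without Huh-7 replicate 2 its Ako-3 value was 0.34 (adjusted p = 0.00087).

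TTK, the kinase also called MPS1 that starts checkpoint signalling (ENSG00000112742, chromosome 6, 80003887 to 80042527, plus strand), had 36.9, 50.1 and 36.4 CPM in control cells, 46.3, 45.6 and 43.5 in Ako-3 and 29.7, 31.1 and 25.4 in Mko-3. All 3 Mko-3 libraries lay below every other library, and TTK fell by 0.52 on the log2 scale (SE 0.12, adjusted p = 0.0012), the steepest fall of the set, and by 0.35 without Huh-7 replicate 2 (adjusted p = 0.0019). Its Ako-3 value was 0.13 (adjusted p = 0.30), and 0.29 without Huh-7 replicate 2 (adjusted p = 0.0032). NDC80, the microtubule-binding subunit of the kinetochore, fell in Mko-3 by 0.24 (SE 0.08, adjusted p = 0.012), from 46.3 ± 2.83 to 39.4 ± 1.22 CPM (SD, n = 3 each), and lost this without Mko-3 replicate 2 (adjusted p = 0.074). In Ako-3 it was -0.16 (adjusted p = 0.094), and -0.21 without Huh-7 replicate 1 (adjusted p = 0.040).

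The other checkpoint and kinetochore genes did not pass in either knockout. BUB3, which recruits BUB1 and BUB1B, had 128, 135 and 129 CPM in control cells, 122, 117 and 123 in Ako-3 and 123, 130 and 126 in Mko-3. NUF2, the partner of NDC80, had 30.8, 29.4 and 29.7 CPM in control cells, 28.5, 29.6 and 29.5 in Ako-3 and 28.8, 30.4 and 23.6 in Mko-3, where replicate 3 was the lowest of all. The log2 fold changes of BUB3 were -0.12 (95% interval -0.25 to 0.01) and -0.06 (-0.19 to 0.06), and those of NUF2 -0.05 (-0.22 to 0.13) and -0.13 (-0.33 to 0.07). MAD2L1, which binds CDC20, was at 0.12 in Ako-3 (adjusted p = 0.30) and -0.15 in Mko-3 (adjusted p = 0.20), and passed as lower in Mko-3 without Huh-7 replicate 3 (-0.25, adjusted p = 0.043). BUB1, CENPA, the centromeric histone, and CENPE, a kinesin of the kinetochore, lay between 0.09 and 0.21 in both knockouts.

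Of the 8 spindle genes, 4 rose in Ako-3 and 5 in Mko-3 cells, and 0 fell in either. NUSAP1, which bundles microtubules around chromosomes, had the largest value of this group and wide errors: 6.34, 11.5 and 8.05 CPM in control cells, 12.2, 11.2 and 11.8 in Ako-3 and 13.9, 14.1 and 13.0 in Mko-3. Its log2 fold change was 0.44 in Ako-3 (SE 0.17, adjusted p = 0.032) and 0.66 in Mko-3 (SE 0.16, adjusted p = 0.0020). The Ako-3 value was lost without any 1 library other than Huh-7 replicate 2 (adjusted p from 0.051 to 0.18) and with DESeq2 (adjusted p = 0.063), and was 0.69 without that library (adjusted p = 0.00025). TPX2 rose by 0.37 (SE 0.07, adjusted p = 9.8e-05) and 0.21 (SE 0.07, adjusted p = 0.012), and KIF11, the kinesin that pushes spindle poles apart, by 0.29 (SE 0.08, adjusted p = 0.0073) and 0.45 (SE 0.09, adjusted p = 2.0e-04). Without Mko-3 replicate 3, TPX2 in Mko-3 had an adjusted p of 0.056.

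ASPM, a spindle pole protein, rose in Ako-3 by 0.37 (SE 0.10, adjusted p = 0.0087), and KIF2C, which takes microtubule ends apart, rose in Mko-3 by 0.33 (SE 0.10, adjusted p = 0.011), lost without Huh-7 replicate 1 or 3 (adjusted p = 0.051 and 0.063). DLGAP5, a stabiliser of kinetochore fibres, had 49.3, 59.3 and 54.2 CPM in control cells, 56.2, 57.5 and 53.6 in Ako-3 and 66.9, 67.1 and 62.5 in Mko-3. It stood at 0.03 in Ako-3 (95% interval -0.13 to 0.20) and rose by 0.26 in Mko-3 (SE 0.08, adjusted p = 0.0073), where every library lay above every control library. HMMR, a spindle pole protein, had 28.6, 29.1 and 27.5 CPM in control cells, 28.2, 27.8 and 24.3 in Ako-3 and 27.5, 28.4 and 29.7 in Mko-3. Its groups overlapped, with values of -0.09 (95% interval -0.28 to 0.09) and 0.00 (-0.18 to 0.17), and those of the chromokinesin KIF4A were 0.13 and 0.07 (adjusted p = 0.24 and 0.55).

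Of the 5 cytokinesis genes, 3 rose in Ako-3 and 4 in Mko-3 cells, and 0 fell. KIF23, the motor of the central spindle, had 52.3, 74.0 and 59.7 CPM in control cells, 86.6, 85.8 and 84.1 in Ako-3 and 91.5, 90.8 and 94.5 in Mko-3. The knockout libraries lay close together and above the control libraries, on the log2 scale by 0.46 (SE 0.10, adjusted p = 0.00073) and 0.57 (SE 0.10, adjusted p = 9.9e-05). ANLN, anillin of the contractile ring, rose by 0.41 (SE 0.09, adjusted p = 0.00079) and 0.50 (SE 0.09, adjusted p = 0.00022). KIF20A, which brings the passenger complex to the midzone, rose by 0.36 (SE 0.08, adjusted p = 0.00073) and 0.22 (SE 0.08, adjusted p = 0.022), the latter lost without Huh-7 replicate 3 or Mko-3 replicate 1 or 3 (adjusted p = 0.10, 0.066 and 0.10).

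ECT2, the exchange factor that activates RhoA at the cleavage furrow (ENSG00000114346, chromosome 3, 172750682 to 172821474, plus strand), had 104, 125 and 112 CPM in control cells, 122, 109 and 107 in Ako-3 and 139, 148 and 141 in Mko-3. It rose in Mko-3 by 0.32 (SE 0.07, adjusted p = 0.00064), and stood at -0.02 in Ako-3 (95% interval -0.17 to 0.14). PRC1, which crosslinks the central spindle, had 1.504, 1.45 and 1.72 CPM in control cells, 1.10, 1.94 and 1.68 in Ako-3 and 1.36, 1.60 and 1.63 in Mko-3. At this depth a 95% interval of -0.62 to 0.64 in Ako-3 and -0.65 to 0.57 in Mko-3 leaves its change undetermined, beside the limit of its shared exons.

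Of the 4 genes of anaphase, 2 rose in each knockout and 0 fell. CDC20, the activator that the checkpoint holds back, had 120.2, 124 and 113 CPM in control cells, 125, 130.1 and 135 in Ako-3 and 147, 145 and 167 in Mko-3. It rose in Mko-3 by 0.35 (SE 0.07, adjusted p = 0.00018) and stood at 0.12 in Ako-3 (SE 0.06, adjusted p = 0.12), although the Ako-3 libraries also lay above the control libraries. ESPL1, separase, had 77.9, 95.03 and 77.6 CPM in control cells, 105, 108 and 118 in Ako-3 and 93.2, 95.2 and 97.9 in Mko-3. It rose in Ako-3 by 0.40 (SE 0.08, adjusted p = 0.00030) and in Mko-3 by 0.18 (SE 0.08, adjusted p = 0.049), the latter lost without any 1 library other than Huh-7 replicate 2 (adjusted p from 0.078 to 0.19), and with DESeq2 or at least 10 counts in every library (adjusted p = 0.059 and 0.058). Without Huh-7 replicate 2 its Mko-3 value was 0.30 (adjusted p = 0.00037).

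UBE2C rose in Ako-3 by 0.25 (SE 0.07, adjusted p = 0.0038) and stood at 0.11 in Mko-3 (adjusted p = 0.18). Securin, PTTG1, had 59.6, 64.9 and 59.2 CPM in control cells, 59.7, 62.7 and 59.9 in Ako-3 and 57.6, 62.2 and 55.3 in Mko-3. The groups overlapped, although 2 Mko-3 libraries lay below every control library, with log2 fold changes of -0.02 (95% interval -0.17 to 0.13) and -0.08 (-0.23 to 0.08), beside the rise of ESPL1, the protease that it inhibits.

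Both genes of chromosome structure rose in both knockouts. MKI67, which encodes the Ki-67 protein that coats mitotic chromosomes and is used as a mark of dividing cells (ENSG00000148773, chromosome 10, 128096659 to 128126385, minus strand), had 213, 347 and 300.5 CPM in control cells, 518, 454 and 527 in Ako-3 and 481, 512 and 527 in Mko-3. All 6 knockout libraries lay at 454 CPM or above, while the control libraries were more spread, relative to their mean, than those of any other mitosis gene apart from NUSAP1. The log2 fold change was 0.79 in Ako-3 (SE 0.19, 95% interval 0.29 to 1.29, adjusted p = 0.022) and 0.81 in Mko-3 (SE 0.19, 0.32 to 1.30, adjusted p = 0.018). The calls were lost in Ako-3 without Huh-7 replicate 3 or Ako-3 replicate 1 (adjusted p = 0.078 and 0.073), and in Mko-3 without Huh-7 replicate 3 (adjusted p = 0.063), with log2 fold changes of 0.83, 0.77 and 0.84.

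TOP2A, the topoisomerase that untangles sister chromatids, had 349, 443 and 386 CPM in control cells, 472, 441 and 451 in Ako-3 and 462, 470.5 and 449 in Mko-3. Huh-7 replicate 2 lay at the level of the knockouts, and the log2 fold changes were 0.20 (SE 0.07, adjusted p = 0.025) and 0.22 (SE 0.07, adjusted p = 0.013). They were lost in Ako-3 without Huh-7 replicate 1 or 3 or Ako-3 replicate 1 or 3 (adjusted p from 0.064 to 0.13) and in Mko-3 without Huh-7 replicate 1 or 3 or Mko-3 replicate 2 (adjusted p = 0.053, 0.055 and 0.051).

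**Figure D4:**
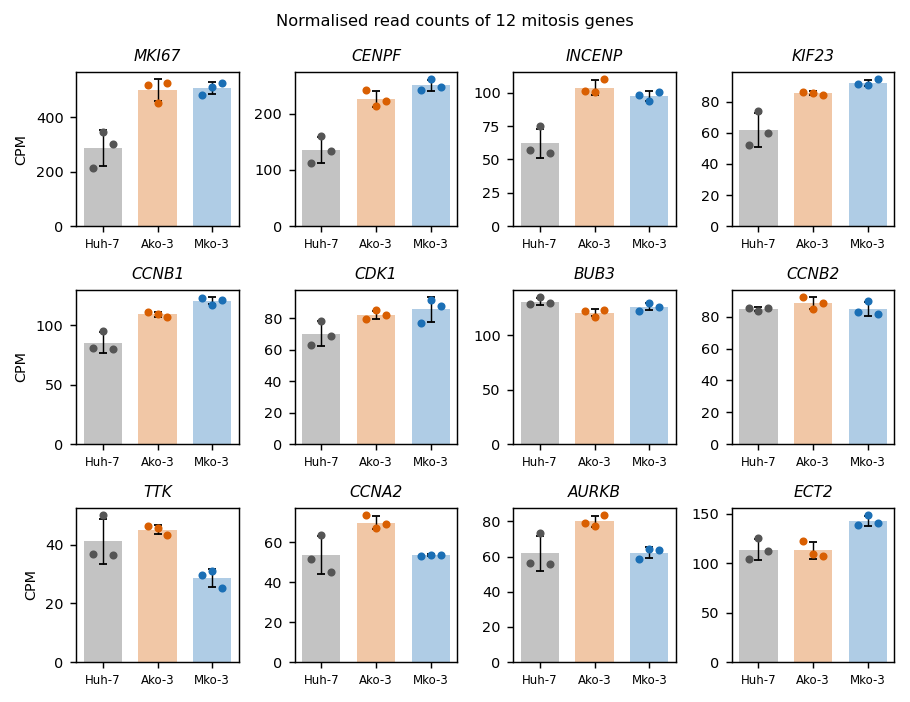
CPM of 12 mitosis genes in control, Ako-3 and Mko-3 cells, with bars for the mean of 3 libraries, error bars for 1 SD and a point for each library. MKI67, CENPF, INCENP, KIF23 and CCNB1 lie above the control libraries in both knockouts, BUB3 and CCNB2 hardly differ, TTK is lowest in Mko-3, and ECT2 is highest there.

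Other genes of mitosis gave like values, and genes of DNA replication gave larger ones. Of 120 further mitosis genes (kinetochore and centromere, motors and spindle, the anaphase-promoting complex, condensin and cohesin, and regulators of entry), 70 rose and 6 fell in Ako-3 cells at the adjusted p, with a median log2 fold change of 0.29, and 74 rose and 8 fell in Mko-3 cells, with a median of 0.34. Of all genes tested, 25.5% rose and 24.4% fell in Ako-3, and 26.9% and 27.1% did in Mko-3. At 2-fold, 3 of the 120 rose and 0 fell in Ako-3, where 3.52% and 5% of all genes tested did. In Mko-3, 6 of them rose and 1 fell, where 3.82% and 7.22% of all genes did. The list of entry and transcription regulators gave 1 of these 2-fold rises in Ako-3 (CDC25A) and 2 in Mko-3 (CDC25A and TFDP1). FOXM1, the transcription factor of late cell cycle genes, rose by 0.75 in Ako-3 (adjusted p = 2.1e-07), and CDC25A, the phosphatase of the G1/S transition, by 1.21 (adjusted p = 1.3e-07) and by 1.43 in Mko-3 (adjusted p = 4.6e-10). The value of FOXM1 in Mko-3 against control cells is not reported here. The condensin subunit NCAPH rose by 0.96 and 0.98 (adjusted p = 6.0e-07 and 6.1e-08), whereas SKA1 of the outer kinetochore fell in Ako-3 by 0.78 (adjusted p = 9.5e-08). The mean of SKA1 was 46.2 CPM in control cells, 27.1 in Ako-3 and 36.1 in Mko-3, so it was lower in both clones.

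Of the 43 genes of DNA replication and G1/S, 41 rose in Ako-3 cells, 24 of them by 2-fold, and 42 in Mko-3, 28 of them by 2-fold, with 0 lower in either. Of all genes tested, 25.5% rose in Ako-3 and 3.52% by 2-fold, and in Mko-3 26.9% and 3.82% did. The medians of the 43 genes, 1.06 and 1.13, stood beside 0.20 and 0.21 for the 40 mitosis genes. LIG1, the replicative DNA ligase, rose by 1.17 (adjusted p = 1.3e-07) and 1.05 (adjusted p = 1.1e-07). CDKN1A, the CDK inhibitor p21, fell in Ako-3 from 85.6 ± 10.3 to 66.1 ± 4.31 CPM (log2 fold change -0.38, adjusted p = 0.00071), and was at -0.19 in Mko-3 (adjusted p = 0.051). The difference between the replication list and the mitosis genes was not tested.

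Set against each other, the clones differed in part of the set and in both directions. In Mko-3 against Ako-3 cells 0 of the 40 genes passed the 2-fold limit, where 5.73% of the 15528 genes tested did, and the count was also 0 at an unadjusted p of at most 0.05 and with DESeq2. At the adjusted p alone, 8 were higher and 9 lower in Mko-3, where 21.1% and 20.6% of all genes tested were. The median log2 fold change was -0.05, and 0.00 over all genes tested. All 3 Mko-3 libraries lay above the Ako-3 libraries in 11 genes and below them in 10 (25.6% and 24.1% of all genes). In a fit of all 9 libraries, 3 were higher and 7 lower, beside 16.5% of all genes in each direction.

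TTK was lower in Mko-3 by 0.65 on the log2 scale (SE 0.07, adjusted p = 6.7e-12), CCNA2 by 0.39 (SE 0.06, adjusted p = 7.6e-08), AURKB by 0.36 (SE 0.06, adjusted p = 1.5e-07), AURKA by 0.27 (SE 0.05, adjusted p = 4.9e-06) and MAD2L1 by 0.26 (SE 0.07, adjusted p = 0.00075). ECT2 was higher in Mko-3 by 0.34 (SE 0.05, adjusted p = 3.3e-08), CDC20 and DLGAP5 by 0.23 each (adjusted p = 9.3e-05 and 0.00098), and KIF2C and CDCA8 by 0.21 and 0.18 (adjusted p = 0.0018 and 0.0077). By role, the anaphase genes had 1 higher and 2 lower in Mko-3 (ESPL1 at -0.21 and UBE2C at -0.15), and the kinetochore and checkpoint genes 1 higher (CENPF) and 2 lower.

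These differences went along with those of other genes on the same stretch of chromosome. The tested genes within 5 Mb of TTK on chromosome 6, 28 without TTK itself, had a median log2 difference of -0.41, and 92.86% of them were lower in Mko-3. The 26 genes around CCNA2 (chromosome 4, 121816444 to 121823933) had a median of -0.26, the 25 around MAD2L1 on the same chromosome -0.26, and the 147 around AURKB (chromosome 17, 8204733 to 8210600) -0.19. On the higher side, the genes around CDC20, KIF2C and CDCA8, all on chromosome 1, had medians of 0.27, 0.27 and 0.29, with 19.13%, 19.44% and 8.51% of them lower, and those around DLGAP5 on chromosome 14 had 0.18. The genes around the chromosome 20 members AURKA, TPX2 and UBE2C had medians of -0.13, -0.15 and -0.15, where the members had -0.27, -0.17 and -0.15.

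Over the 40 genes, Pearson's r between a gene's log2 difference and the median of its neighbours was 0.755 and Spearman's rho 0.644, given as a description, since genes close together share neighbours and all share the same 6 libraries. Of the 17 genes past the adjusted p, 14 had the sign of their neighbours' median. ECT2 did not, at 0.34 beside a median of -0.05 over 28 genes, nor did CENPF, at 0.15 beside -0.01, and ASPM, at -0.16 beside 0.09. Against control cells the same r was 0.184 in Ako-3 and 0.225 in Mko-3. There, 6 of the 20 genes past the adjusted p in Ako-3 and 13 of the 24 in Mko-3 had their neighbours' sign. The share with that sign among all genes was not taken in any comparison. For the genes that rose most, the neighbours had medians of -0.09 and -0.11 around CENPF, -0.12 and -0.07 around MKI67, and 0.16 and 0.10 around INCENP. The neighbour medians ranged from -0.30 to 0.19 and from -0.41 to 0.13 over the 40 genes. The neighbours of TTK stood at 0.15 in Ako-3 and -0.27 in Mko-3 against control cells, where TTK stood at 0.13 and -0.52. Those of CCNA2 stood at -0.22 and -0.41, where CCNA2 stood at 0.38 and -0.01. On chromosome 4, the genes after MTTP, which include CCNA2, MAD2L1 and CENPE, had a median of -0.24 in Mko-3 against control cells, and those before it 0.10. The number of copies of these stretches was not measured, and the part it may have in the differences was not tested.

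**Figure D5:**
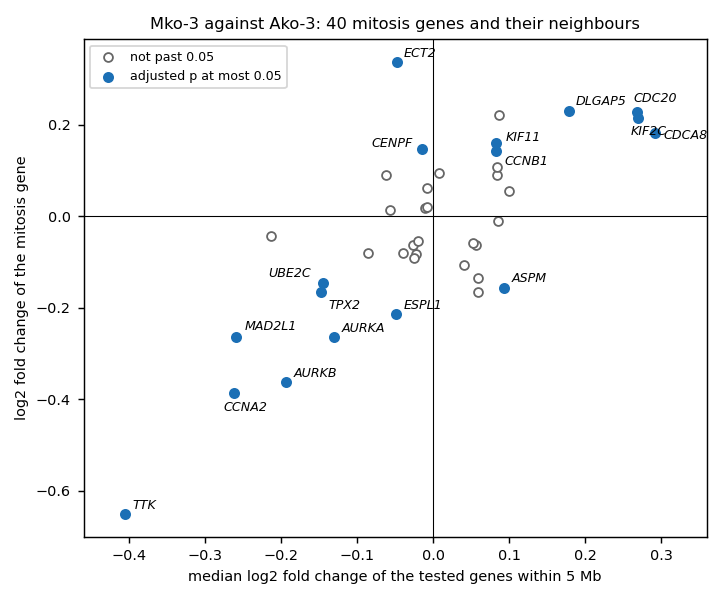
Log2 fold change of each of the 40 mitosis genes in Mko-3 against Ako-3 cells (vertical axis) by the median log2 fold change of the tested genes within 5 Mb of it, the gene itself left out (horizontal axis), with filled, named points at an adjusted p of at most 0.05. TTK lies lowest on both axes, at -0.65 and -0.41, CDC20, KIF2C and CDCA8 lie to the upper right, and ECT2 lies apart at 0.34 and -0.05.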

How the data were processed

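To make the counts, the authors had reads aligned to hg38 with HISAT2 2.0.5 and counted on genes with featureCounts 1.5.0-p3, per the labels and the study's methods, and deposited raw counts of 58735 genes in 9 libraries. The annotation release and the strand setting were not given in the sources used here. The FPKM table that the authors deposited is, from its values, the count over the length of the gene and over 1 constant for each library, set on all 9 libraries together. The gene length and gene position are other columns that the authors deposited beside both.

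Totals were 14638727 to 20179760 counts per library, and PRC1, the lowest member, had 243 counts in all. Depth and group were read from the deposited tables and the labels, and the labels name no sequencing batch. All 40 genes passed the filter on low counts.

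Each comparison was fitted on its 6 libraries with edgeR 4.0.16 in R 4.3.3 (TMM, filterByExpr with min.count 10, quasi-likelihood F test with robust dispersion), with Benjamini-Hochberg adjustment over all genes tested. The study's limits, a log2 fold change past 1 in either direction and an adjusted p of at most 0.05, set the main call, and results at the adjusted p alone are named as such. The procedure was tested on simulated data with planted changes larger than 2-fold. Smaller changes, such as those called at the adjusted p alone, were not simulated. Alternatives were DESeq2 1.42.0, RLE size factors, no filter, at least 10 counts in every library, all 9 libraries in 1 fit, the replicate number as a block, leaving out each library and, added after seeing the data, library totals without a scaling factor.

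The members and the other gene lists were chosen with earlier results of these data known. The genes given in all 9 libraries are those with the largest and the smallest log2 fold change of each role group in each control comparison, plus CDK1, CCNB1, PLK1, AURKB, BUB1B, TOP2A and MKI67, and TTK, CCNA2, BIRC5 and ECT2, which were added after their values were seen. Of other lists, at most the 3 genes of smallest adjusted p, with CDKN1A, APOB and MTTP, could be named; 1 list and some single genes are not reported here. Neighbours are tested genes within 5 Mb, a measure set for chromosome 4 and extended to all members after the values were seen. Shared exon bases were taken from GENCODE release 44, and promoters from RefSeq on GRCh38.p14. Columns of other samples numbered 0.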

Additional observations from a re-analysis of the deposited data

Results flagged for a closer look

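For 17 of the 40 genes the knockouts differed from each other by the edgeR test of Mko-3 against Ako-3 cells, which tests the difference of their effects directly because both share the control libraries. These were 8 higher and 9 lower, near the shares of all 15528 genes tested, 21.1% higher and 20.6% lower. Lower in Mko-3 on the log2 scale were TTK (-0.65), CCNA2 (-0.39), AURKB (-0.36), AURKA (-0.27), MAD2L1 (-0.26), ESPL1 (-0.21), TPX2 (-0.17), ASPM (-0.16) and UBE2C (-0.15). Higher were ECT2 (0.34), DLGAP5 (0.23), CDC20 (0.23), KIF2C (0.21), CDCA8 (0.18), KIF11 (0.16), CENPF (0.15) and CCNB1 (0.14). Of the 17, 10 were past the adjusted p under each of the 13 alternatives (AURKA, AURKB, CCNA2, CDC20, DLGAP5, ECT2, ESPL1, MAD2L1, TPX2 and TTK). The others lost it under at least 1, and ASPM, CCNB1, CDCA8, CENPF, KIF11, KIF2C and UBE2C all lost it in the fit of all 9 libraries. Each clone was grown from 1 cell, so a clone effect and a gene effect cannot be told apart here.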

How the results depend on the processing

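No value of the 40 genes reversed direction under an alternative at which it was past the threshold. Over the single genes and the 13 alternatives, 480 values in Ako-3 kept their side of the adjusted p, 11 gained it and 29 lost it. In Mko-3 cells 480 kept it, 9 gained it and 31 lost it, and between the clones 493, 9 and 18 did. The count past 2-fold was 0 in all settings except without Huh-7 replicate 2, so that leaving out 1 library gave 0 to 1 in Mko-3 (CENPF). With library totals and no scaling factor, 2 genes were lower in Ako-3 (0 with TMM), beside 31.4% of all genes tested (24.4% with TMM). The median of the 40 genes there was 0.11. Leaving out 1 library gave 0 to 1 lower in Ako-3 and 1 to 3 in Mko-3, medians from 0.12 to 0.30 in Ako-3 and from 0.14 to 0.30 in Mko-3. With all 9 libraries in 1 fit, 3 genes were higher in Mko-3 than in Ako-3 instead of 8, and 16.5% of all genes instead of 21.1%. The cause of these shifts was not tested. The replicate numbers did not pair the samples, since the correlations of same-numbered libraries lay between -0.07 and 0.06. With the replicate block, 20, 22 and 8 genes were higher and 0, 3 and 9 lower in Ako-3, in Mko-3 and in Mko-3 against Ako-3, with medians of 0.21, 0.22 and -0.04. Of all genes, 24%, 27.2% and 21.6% were higher there, and 22.8%, 27.2% and 21% lower. Depth limits PRC1, with 243 counts in all.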
